A study of Anser cygnoides with 11 samples.

Results

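Inflammatory cytokines, their receptors and the genes of the NF-kappaB pathway were followed in kidney tissue of goslings (Anser cygnoides) with visceral gout, the deposition of urate on internal organs. The set was defined by 41 gene symbols, and 32 of them had a row in the authors' table of 19275 rows. The remaining 9, IL8, RELA, RELB, IL1R1, IL6R, BIRC3, ICAM1, CEBPB and CEBPD, had no row under that symbol. Kidneys of 5 goslings with gout, chosen by the submitters for typical lesions and serum values, were set against kidneys of 6 healthy goslings, and the labels give no strain, age or sex. The labels call every sample renal, but their protocol texts, shared by both groups, also speak of lowered oxygen in water tanks and of adipose RNA, which match neither goslings nor kidney. Messenger RNA was measured by sequencing of polyadenylated RNA and was deposited as FPKM, a fragment count divided by the length of the transcript and by the size of the library. Each library is 1 gosling.

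NF-kappaB is a family of transcription factors held in the cytoplasm by IkappaB proteins and released when receptors for TNF, interleukin-1 or microbial products signal through TRAF adaptors and the IKK kinases. Its targets include cytokines, adhesion molecules, COX-2 and inducible nitric oxide synthase, and also its own brakes, IkappaB-alpha and A20. Cytokines of the interleukin-6 and interleukin-10 families act beside it through JAK kinases and STAT factors, with SOCS proteins as feedback inhibitors. In the kidney these genes are used by tubule cells, by vessels and by resident and infiltrating leukocytes.

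Across all 12252 tested rows the median log2 fold change was -0.29 (gout minus control, on log2(FPKM + 1)), so fold changes are to be read against that shift. FPKM summed to between 229465 and 399990 per gout library and between 306484 and 390546 per control library, and gout replicates 3 and 2 had the lowest of all 11, at 229465 and 246944. The 10 highest rows of each library held 25.6% to 29.7% of FPKM in gout and 18.7% to 22.2% in control libraries. Between 10712 and 11927 rows reached 1 FPKM in gout libraries and between 11847 and 12569 in control libraries. The part of these differences in the shift of all rows was not tested. The table holds no counts, so depth is unknown. The kidney transcription factor PAX2 was present in both groups, at 8.69 ± 1.09 FPKM in gout and 8.31 ± 0.73 FPKM in control kidneys (SD, n = 5 and 6), and 0 of 5 tested kidney epithelial factors passed. Nephron markers were lower in part: 3 of 6 tested proximal tubule, 3 of 8 distal nephron and 1 of 6 podocyte markers fell. Of 10 endothelial markers 0 passed, and over all tested rows 6.29% fell. GATM, an enzyme of creatine synthesis in proximal tubule, averaged 0.439 ± 0.250 FPKM in gout and 30.2 ± 33.7 FPKM in control kidneys, and CALB1, a calcium-binding protein of distal tubule, 13.8 ± 5.92 FPKM in gout and 51.2 ± 10.5 FPKM in control kidneys (SD, n = 5 and 6). In the same proximal and distal lists AQP1, SLC34A1 and SLC12A3 had positive log2 fold changes of 0.30, 0.13 and 0.07, without passing. The proximal tubule markers summed to 21.7 to 77.9 FPKM in gout and 54.6 to 376 FPKM in control kidneys. Leukocyte markers were lower in gout: 11 of 12 tested lymphocyte markers, 6 of 7 macrophage markers and 2 of 4 heterophil markers fell. After quantile normalization 7, 3 and 0 of them did, with negative medians in all 3 lists. Of all tested rows 4.03% then passed in either direction. On the deposited scale LYZ and CXCR4 were the heterophil markers that fell. CSF3R and MPO did not pass (limma adjusted p = 0.1985 and 0.4178). The lymphocyte markers summed to 21.9 to 193 FPKM in gout and 149 to 633 FPKM in control kidneys. The macrophage markers summed to 47.8 to 233 FPKM in gout and 222 to 685 FPKM in control kidneys, and those of heterophils, the avian counterpart of neutrophils, to 5.35 to 41.1 FPKM and 24.6 to 125 FPKM. None of these markers with a row was at 0 in all 11 libraries. GATM and the lymphocyte marker CD79B reached 1 FPKM in the 6 control libraries alone, so both passed the filter only through controls. Among the gout libraries, replicate 1 had the highest sum of each of the 3 leukocyte lists. In bulk tissue fewer cells of a type and less RNA per cell cannot be told apart, and the part of the lower leukocyte and nephron markers in the results that follow was not tested.

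The inflammatory and NF-kappaB genes were called in gout kidney at a share near that of all rows. The filter of 1 FPKM or more in 5 or more of the 11 libraries left 28 of the 32 genes. LITAF and TNFAIP2 fell, 0 rose and 26 did not pass limma with Benjamini-Hochberg adjustment over all rows at 0.05. That is 7.14% called, where 6.99% of all tested rows were called in either direction, 6.29% lower and 0.694% higher. The median log2 fold change of the 28 genes was -0.37, beside -0.29 for all tested rows. At an unadjusted p under 0.05 there were 8 of the 28 genes, against 27% of all tested rows. In 0 of the 28 genes did the gout and control values separate without overlap, and 5.03% of all tested rows did so.

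**Figure D1:**
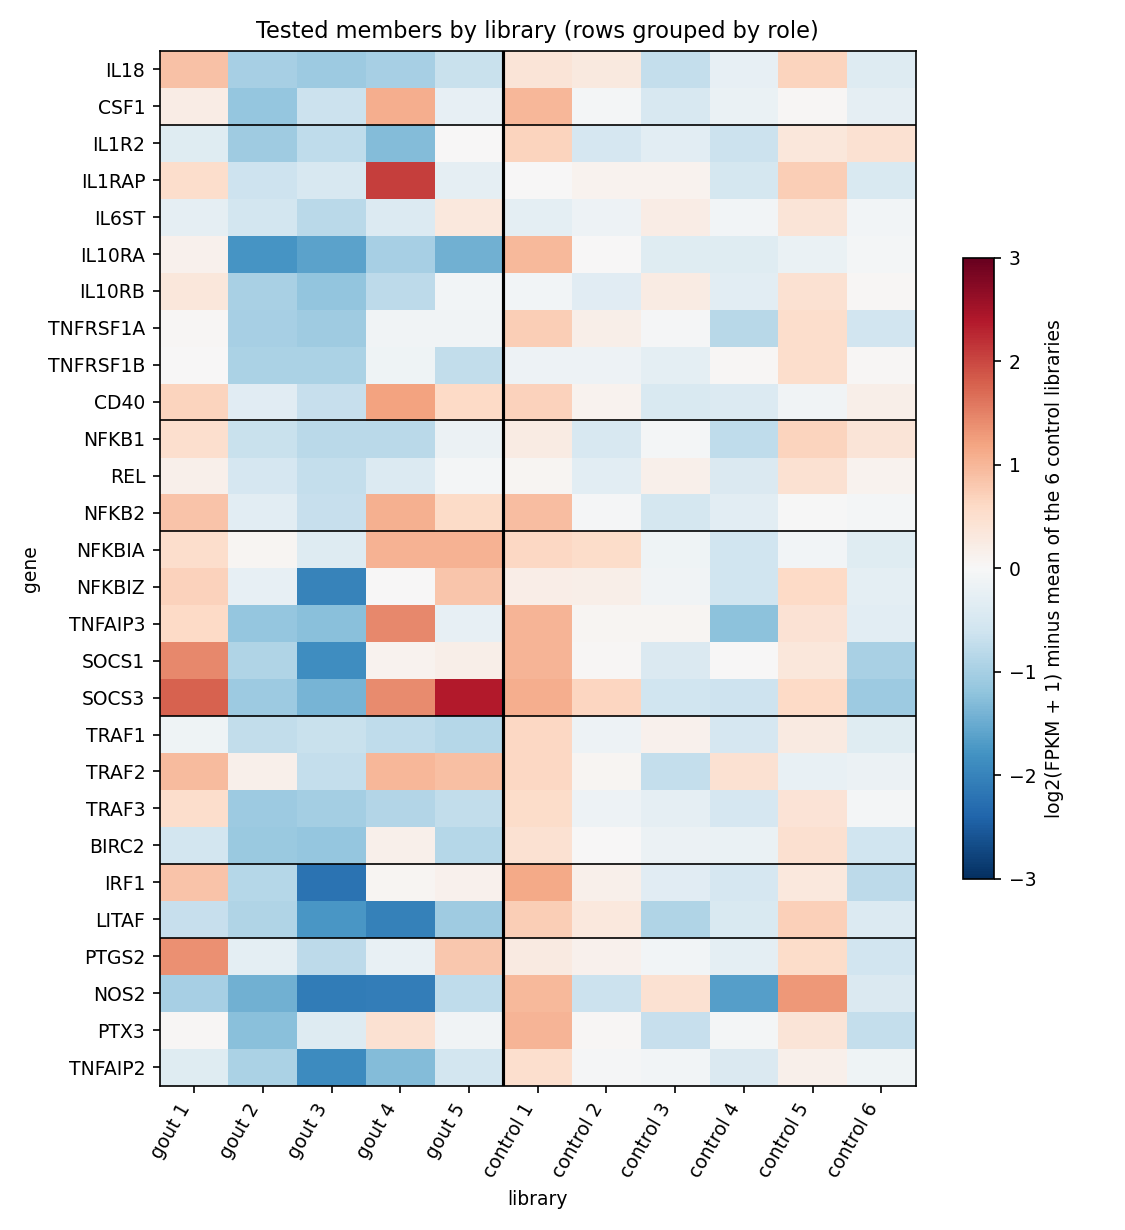
Colours show log2(FPKM + 1) of each of the 28 tested genes in each library minus the mean of the 6 control libraries, with gout libraries on the left of the black line and genes grouped by role. Gout replicate 3 was below the control mean in 28 of 28 genes and gout replicate 2 in 26, while gout replicate 1 was above it in 21.

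Of the 6 cytokines with a row, 4 were under the filter and 2, IL18 and CSF1, were at 1 FPKM or more in all 11 libraries without passing. IL6, the acute-phase cytokine, was listed at 0.805, 0.101, 0.373, 0.709 and 0 FPKM in gout replicates 1 to 5 and at 0.472, 0, 0.287, 0.359, 0.799 and 0 FPKM in control replicates 1 to 6. IL10, the main anti-inflammatory cytokine, was listed at 0.0921, 0, 0, 0.0487 and 0 FPKM in gout and at 0.154, 0.129, 0.141, 0.0172, 0 and 0.0728 FPKM in control kidneys. Neither reached 1 FPKM in any kidney, and the groups overlapped for both, although 3 controls were above every gout kidney for IL10. IL15, a growth factor of T and natural killer cells, and TNFSF15, a TNF family ligand, had means over all libraries of 0.922 and 0.798 FPKM and reached 1 FPKM in 4 libraries each. These 4 genes were under the filter. In a fit without the filter their adjusted p (limma) lay between 0.314 and 0.831.

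IL18, a cytokine released through the inflammasome, was at 9.71, 1.96, 1.75, 1.95 and 2.69 FPKM in gout and at 6.69, 6.18, 2.54, 3.93, 8.31 and 3.46 FPKM in control kidneys. Gout replicate 1 exceeded every control and 3 gout kidneys lay below every control. Its log2 fold change was -0.57 (SE 0.37, limma adjusted p = 0.326). Without gout replicate 1 it was -0.93 (adjusted p = 0.0477), and a lower value follows from leaving out the highest gout kidney. In that fit 1385 of all 12252 tested rows were called, against 856 with all goslings. CSF1, the macrophage growth factor, was at 1.14 to 9.20 FPKM in gout and 2.42 to 8.46 FPKM in control kidneys, with a log2 fold change of -0.14 that became 0.12 after quantile normalization.

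Interleukin-8, a chemokine that draws granulocytes, had no row under its symbol, but 3 rows with LOC names are described in the file as interleukin-8 or interleukin-8-like. They were taken up after their values had been seen. LOC106041918, described as interleukin-8, was at 49.5, 4.56, 1.44, 30.7 and 8.93 FPKM in gout and at 14.4, 9.19, 2.80, 3.44, 14.4 and 5.12 FPKM in control kidneys. LOC106041921 was at 36.3, 0.208, 0.196, 21.5 and 0.421 FPKM in gout and at 4.05, 2.84, 0.939, 0.748, 3.12 and 1.27 FPKM in control kidneys. Gout kidneys lay on both sides of the controls: replicates 1 and 4 were above every control and replicates 2, 3 and 5 were below every control for LOC106041921. LOC106041919 was split in the same way, with 20.7 and 18.1 FPKM in gout replicates 1 and 4. It was at 0.160 to 0.446 FPKM in the other gout kidneys and at 1.14 to 4.01 FPKM in controls. The log2 fold changes were 0.56, 0.61 and 0.44 with SE of 0.69, 0.86 and 0.74, and none passed (limma adjusted p = 0.620, 0.671 and 0.725). Gout replicates 1 and 4 differed in leukocyte markers, with lymphocyte sums of 193 and 35.0 FPKM and macrophage sums of 233 and 64.3 FPKM. Their heterophil sums were 41.1 and 16.2 FPKM. Gout replicate 3, low for all 3 rows, had a heterophil sum of 35.4 FPKM, and the sums of replicates 2 and 5 were below that of replicate 4. LYZ alone gave 13.3 FPKM of the sum in replicate 4. CXCR4 was lower in replicate 4 than in replicates 2 and 5 (0.372 against 1.06 and 1.20 FPKM). For CSF3R and MPO, replicate 4 lay between replicates 2 and 5. The part of leukocyte content in the levels of the 3 interleukin-8 rows was not tested. In the RefSeq gene order of the Taihu goose assembly these 3 genes lie within a run of 4 neighbouring genes. Whether reads were split between these neighbours was not tested, as no sequences were compared, so the separate levels may be uncertain.

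**Figure D2:**
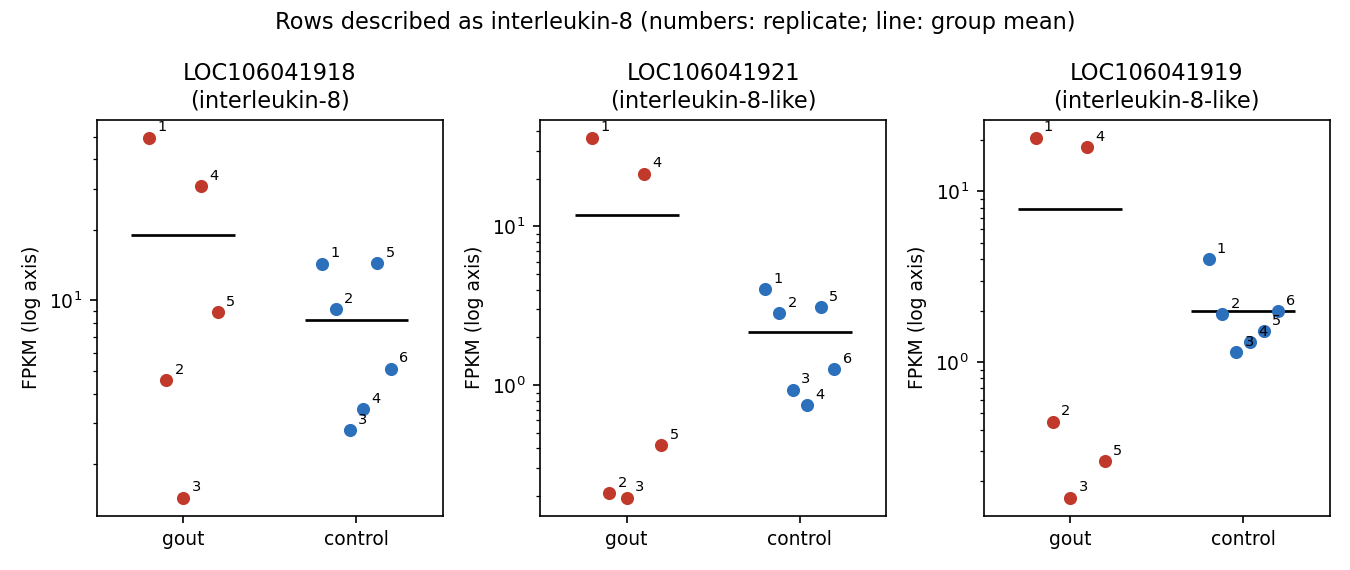
FPKM on a log axis for the 3 rows described as interleukin-8 or interleukin-8-like, with gout on the left and control on the right, points numbered by replicate and lines at the group mean. Gout replicates 1 and 4 lie above all 6 controls in each panel, and the other gout kidneys lie below all controls for LOC106041921 and LOC106041919.

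Of 8 tested receptors 0 passed, and 6 had negative fold changes, where 76.8% of all tested rows did. IL10RA, the ligand-binding chain of the interleukin-10 receptor found mainly on leukocytes, was at 4.80, 0.536, 0.734, 1.65 and 0.928 FPKM in gout and at 9.40, 4.27, 3.12, 3.09, 3.62 and 4.02 FPKM in control kidneys. All gout kidneys except replicate 1 were below every control. Its log2 fold change was -1.14 (SE 0.34, limma adjusted p = 0.0603), and without gout replicate 1 it was -1.46 (adjusted p = 0.00825). Since that kidney was the only one of gout within the control range, a larger difference follows from leaving it out. In that fit 1385 of all tested rows were called, against 856 with all goslings. Without any other single gosling IL10RA did not pass (adjusted p up to 0.141). IL10RB, the chain shared with other cytokine receptors, averaged 4.498 ± 2.54 FPKM in gout and 6.49 ± 1.64 FPKM in control kidneys (SD, n = 5 and 6; log2 fold change -0.53, adjusted p = 0.242). The ratio of IL10RA to IL10RB within each library, on the log2(FPKM + 1) scale, was -1.08 ± 0.50 in gout and -0.48 ± 0.64 in control kidneys, and the difference of -0.60 was within the spread (exact two-sided permutation p = 0.128, adjusted over 2 ratios 0.255, smallest possible 0.00216).

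IL1R2, the decoy receptor that binds interleukin-1 without signalling, was at 0.554 to 2.87 FPKM in gout and 1.46 to 5.08 FPKM in control kidneys, with a log2 fold change of -0.70 (SE 0.30, limma adjusted p = 0.155). IL1RAP, the shared accessory chain of the interleukin-1 receptors, was at 2.19, 0.428, 0.577, 8.35 and 0.828 FPKM in gout and at 0.539 to 2.70 FPKM in control kidneys. A single gout kidney, replicate 4, stood above all controls, and without it the log2 fold change of 0.24 became -0.22. IL1R2 opens a run of 6 neighbouring genes in the RefSeq order that ends with IL18R1 and IL18RAP, the chains of the interleukin-18 receptor. IL18RAP fell, to 0.625 ± 0.657 FPKM in gout against 1.89 ± 0.486 FPKM in control kidneys (log2 fold change -0.89, limma adjusted p = 0.0304, 0.0623 after quantile normalization). IL18R1 was under the filter, with 0.582 FPKM at most in gout and 0.720 FPKM at least in control kidneys. The second gene of the run, LOC106041672, is described in the file as similar to the signalling receptor IL1R1. It was at 1.503 FPKM in gout replicate 1 and at 0.0652 to 0.497 FPKM in the other gout kidneys, against 0.0660 to 0.150 FPKM in controls. This row lay outside the defined set of symbols, was under the filter and was not tested. It reached 1 FPKM in gout replicate 1 alone.

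The 3 receptors of the TNF receptor family did not pass. TNFRSF1A, the widely expressed TNF receptor, averaged 8.998 ± 3.42 FPKM in gout and 12.8 ± 5.53 FPKM in control kidneys, and TNFRSF1B, the TNF receptor typical of leukocytes, 0.95 ± 0.64 and 1.79 ± 0.62 FPKM (SD, n = 5 and 6). Their ratio within libraries differed by -0.11 on the log2 scale (exact two-sided permutation p = 0.736, adjusted over 2 ratios 0.736). That size depends on the pseudocount of 1, and with 0.01 in its place the difference was -0.63 (exact permutation p = 0.171). CD40, a TNF family receptor of B cells and antigen-presenting cells, was the most abundant receptor of the set per length in both groups. Its levels spanned 11.6 to 45.9 FPKM in gout and 13.9 to 32.0 FPKM in control kidneys, with a log2 fold change of 0.28 (adjusted p = 0.609). A second, less abundant CD40 row had a log2 fold change of -0.32 (adjusted p = 0.597), and the summed rows had 0.17. IL6ST, the signalling chain of the interleukin-6 family known as gp130, had a log2 fold change of -0.34 (adjusted p = 0.349).

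The 3 NF-kappaB subunits with a row did not pass. NFKB1, the precursor of p50, was at 14.3, 5.78, 5.21, 5.18 and 8.55 FPKM in gout and at 11.8, 6.80, 9.49, 5.45, 16.1 and 13.2 FPKM in control kidneys (log2 fold change -0.40, SE 0.31, limma adjusted p = 0.425). REL, the c-Rel subunit of lymphoid cells, averaged 3.67 ± 1.15 FPKM in gout and 4.75 ± 1.27 FPKM in control kidneys. NFKB2, the precursor of p52 in the non-canonical arm, averaged 12.7 ± 6.36 and 9.59 ± 4.37 FPKM (SD, n = 5 and 6; log2 fold change 0.30, adjusted p = 0.593). The values of each subunit overlapped between the groups.

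None of the 5 inhibitors and feedback genes passed, and their values overlapped between the groups. NFKBIA, which encodes IkappaB-alpha and is itself an NF-kappaB target, was at 90.0, 64.1, 46.8, 129 and 128 FPKM in gout and at 95.2, 90.5, 56.6, 40.6, 58.5 and 47.4 FPKM in control kidneys. Replicates 4 and 5 of gout were above every control. Its log2 fold change was 0.46 (SE 0.32, limma adjusted p = 0.365), and 0.74 after quantile normalization (adjusted p = 0.0822). SOCS3, the feedback inhibitor of interleukin-6 signalling, was at 37.4, 4.34, 3.33, 29.2 and 58.1 FPKM in gout and at 23.0, 16.8, 6.49, 6.31, 16.0 and 4.30 FPKM in control kidneys. Gout replicates 1, 4 and 5 were above every control, while replicate 2 was near the lowest control and replicate 3 below it. The mean difference was within that spread (log2 fold change 0.62, SE 0.67, adjusted p = 0.569).

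TNFAIP3, the ubiquitin-editing enzyme A20, was at 6.36, 1.17, 1.02, 12.0 and 3.10 FPKM in gout and at 8.75, 4.004, 4.04, 1.05, 5.52 and 2.85 FPKM in control kidneys (log2 fold change -0.12, SE 0.49, limma adjusted p = 0.887). The sign turned to 0.10 after quantile normalization and to 0.04 after upper quartile scaling. NFKBIZ, a nuclear IkappaB protein, and SOCS1, the feedback inhibitor of interferon signalling, had log2 fold changes of -0.14 and -0.21, which became 0.10 and 0.04 after quantile normalization. NFKBIZ lay between 0.265 and 8.11 FPKM in gout and between 2.38 and 6.74 FPKM in control kidneys, and SOCS1 between 1.52 and 23.8 FPKM in gout and between 3.68 and 17.6 FPKM in control kidneys. All 5 genes of the inhibitor group had fold changes above the median of all rows.

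Among the adaptors, 0 of 4 passed. TRAF2, which carries the TNF receptor signal, averaged 33.0 ± 13.8 FPKM in gout and 22.7 ± 7.82 FPKM in control kidneys (SD, n = 5 and 6). The difference was 0.46 on the log2 scale (SE 0.34, limma adjusted p = 0.398). That row is an assembled transcript without a description, and the less abundant, described TRAF2 row had a log2 fold change of 0.01. TRAF1, an NF-kappaB target found in lymphocytes, averaged 0.68 ± 0.38 and 1.64 ± 0.79 FPKM (log2 fold change -0.63, adjusted p = 0.0877). TRAF3, a brake on the non-canonical arm, had a log2 fold change of -0.64 (adjusted p = 0.189) in its more abundant row, which also has no description. Without gout replicate 1 the adjusted p was 0.0414 for TRAF1 and 0.0254 for TRAF3. For both genes that kidney was the only one of gout within the control range, so a larger difference follows from leaving it out. In that fit 1385 of all tested rows were called, against 856 with all goslings. BIRC2, the ubiquitin ligase cIAP1, was at 9.22, 5.90, 5.78, 15.7 and 7.29 FPKM in gout and at 19.7, 14.2, 12.4, 12.2, 19.9 and 8.95 FPKM in control kidneys (log2 fold change -0.71, SE 0.28, adjusted p = 0.128).

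LITAF and TNFAIP2 were the genes that fell. LITAF, a membrane protein of late endosomes and lysosomes named for its link to TNF induction by lipopolysaccharide, was at 6.84, 5.80, 2.75, 2.11 and 5.06 FPKM in gout and at 19.9, 14.7, 5.80, 8.24, 19.8 and 8.44 FPKM in control kidneys. All gout kidneys except replicate 1 were below every control, replicate 2 by less than the rounding shown. Its log2 fold change was -1.28 (SE 0.35, limma adjusted p = 0.0436). TNFAIP2, a gene first found as induced by TNF in endothelial cells, was at 10.0, 6.33, 2.81, 4.76 and 8.67 FPKM in gout and at 19.2, 12.8, 12.4, 9.58, 14.8 and 12.0 FPKM in control kidneys. All gout kidneys except replicate 1 were below every control here too, and the log2 fold change was -1.01 (SE 0.28, adjusted p = 0.0450).

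Both calls lay close to the threshold. After quantile normalization the log2 fold changes were -0.97 and -0.73 (limma adjusted p = 0.0882 and 0.0549), so that 0 of the 28 genes passed, where 4.03% of all tested rows did. After upper quartile scaling 0 passed (4.47% of all tested rows), and on the TPM scale TNFAIP2 did (5.81% of all tested rows). The LITAF call was lost without any of gout replicates 2, 3 and 4 and control replicates 1, 2, 5 and 6. The TNFAIP2 call was lost without the same goslings and without control replicate 3, with adjusted p of at most 0.105 and 0.102 for LITAF and TNFAIP2. The fold changes without single goslings stayed between -1.46 and -1.10 for LITAF and between -1.18 and -0.79 for TNFAIP2.

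**Figure D3:**
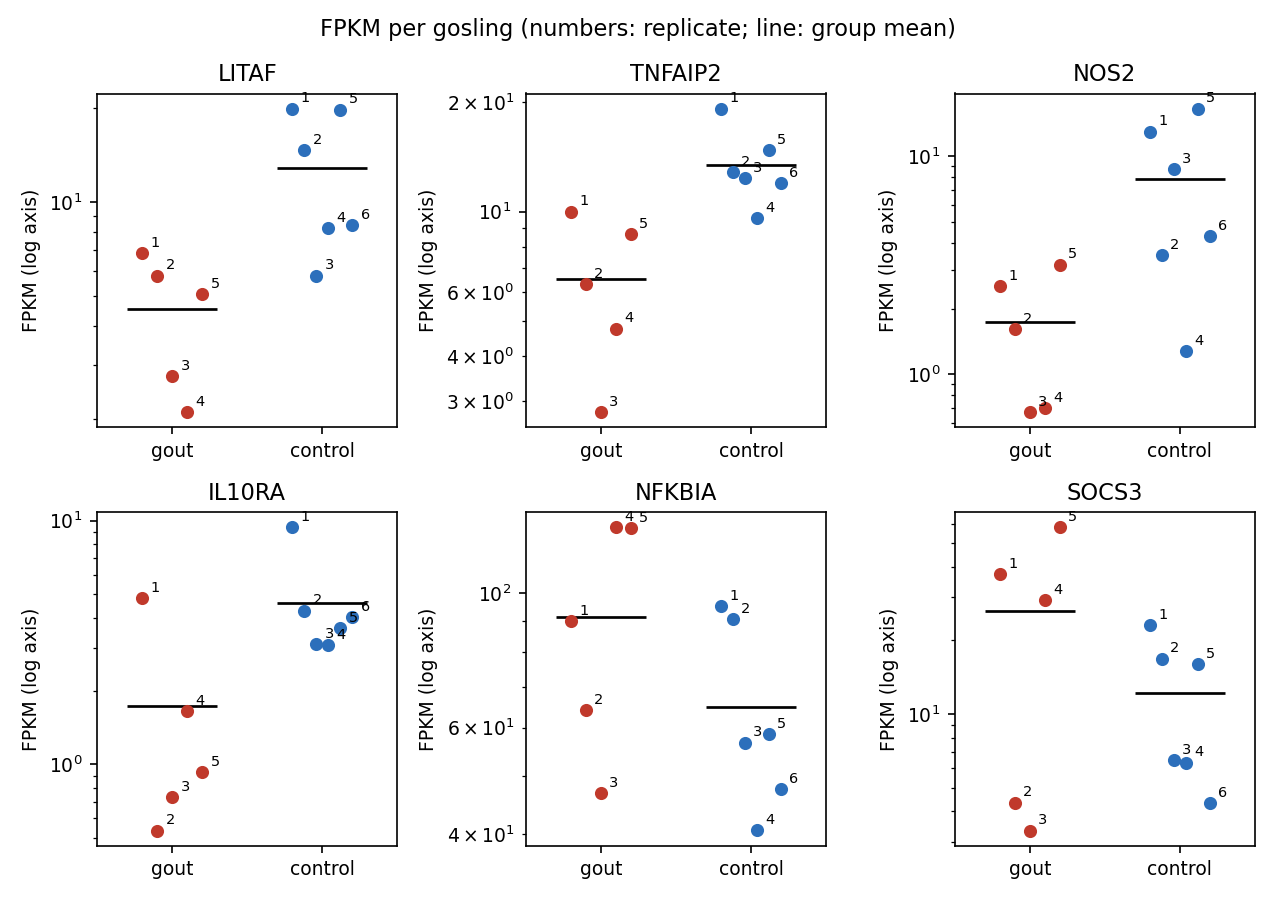
FPKM on log axes for LITAF, TNFAIP2, NOS2, IL10RA, NFKBIA and SOCS3, with gout on the left and control on the right, points numbered by replicate and lines at the group mean. For LITAF, TNFAIP2 and IL10RA all gout kidneys except replicate 1 lie below all controls, while for SOCS3 gout replicates 1, 4 and 5 lie above all controls.

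NOS2, the inducible nitric oxide synthase of activated macrophages, had the largest fold change of the set without passing. It was at 2.54, 1.61, 0.670, 0.697 and 3.18 FPKM in gout and at 12.9, 3.53, 8.72, 1.27, 16.5 and 4.31 FPKM in control kidneys. Control replicate 4 lay among the gout values, and the other 5 controls were above all gout kidneys. The log2 fold change was -1.48 (SE 0.47, limma adjusted p = 0.0726), and without control replicate 4 it was -1.80 (adjusted p = 0.0259). Since that control was the one among the gout values, a larger difference follows from leaving it out. In that fit 788 of all tested rows were called, against 856 with all goslings. Without any other single gosling NOS2 did not pass (adjusted p up to 0.157). PTGS2, the inducible cyclooxygenase COX-2, was at 7.33, 1.62, 0.871, 1.76 and 4.66 FPKM in gout and at 2.90, 2.51, 2.07, 1.64, 3.70 and 1.18 FPKM in control kidneys. Replicates 1 and 5 of gout were above every control, and the log2 fold change of 0.17 (adjusted p = 0.778) became -0.13 without gout replicate 1. PTX3, a soluble pattern recognition protein, and IRF1, a transcription factor of interferon and TNF responses, had log2 fold changes of -0.25 and -0.41 (adjusted p = 0.668 and 0.611). ICAM1 had no row under its symbol. LOC106049783, described in the file as similar to the adhesion molecule ICAM5 and picked after its values had been seen, averaged 29.9 ± 20.5 FPKM in gout and 11.7 ± 2.86 FPKM in control kidneys (log2 fold change 0.996, SE 0.42, adjusted p = 0.148).

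**Figure D4:**
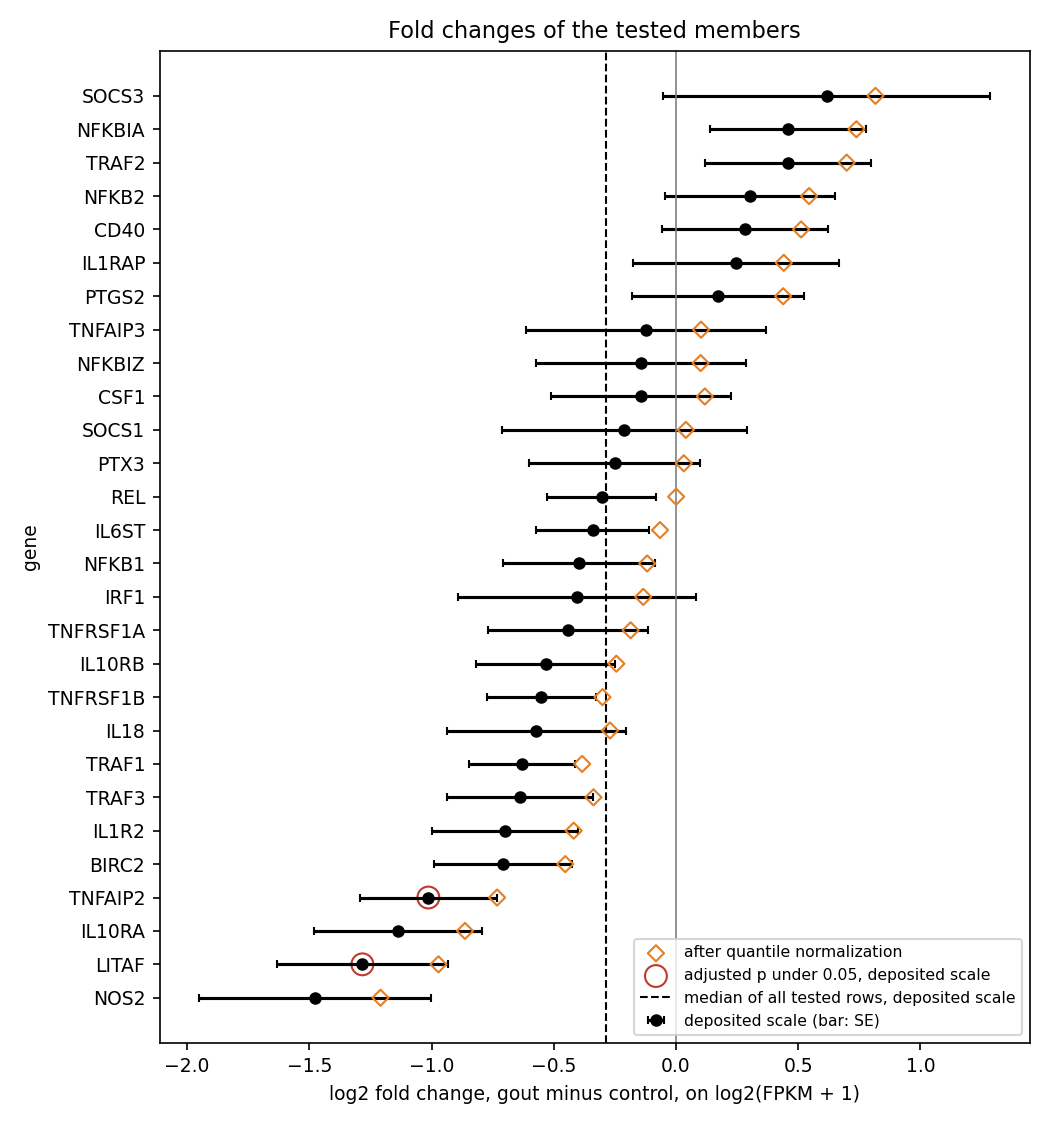
Log2 fold changes (gout minus control) of the 28 tested genes with bars of 1 SE, open diamonds after quantile normalization, red rings at an adjusted p under 0.05, and a dashed line at the median of all tested rows, -0.29. Only LITAF and TNFAIP2 carry a ring on the deposited scale, and 21 of 28 points lie below 0, against 15 of 28 diamonds.

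Goslings of the same group differed widely in these genes. For each library the median of the 28 genes was taken relative to the control mean of each gene. It was 0.41, -0.93, -0.98, -0.12 and -0.10 on the log2 scale in gout replicates 1 to 5 and 0.62, 0.02, -0.21, -0.43, 0.42 and -0.31 in control replicates 1 to 6. The medians of all tested rows were 0.00, -0.46, -0.61, -0.42 and 0.02 in gout and lay between -0.12 and 0.15 in control libraries. Relative to all rows of the same library the 28 genes thus stood at 0.41, -0.47, -0.37, 0.30 and -0.12 in gout and at 0.59, 0.04, -0.19, -0.31, 0.27 and -0.29 in control kidneys. Gout replicate 1 had the highest value among gout kidneys for 14 of the 28 genes, replicate 4 for 9 and replicate 5 for 5, while replicate 3 had the lowest for 18. Among control kidneys, replicate 1 was highest for 17 genes and replicate 5 for 11. The 2 lowest gout libraries were also those with the lowest FPKM totals, and the part of the total in their low values was not tested. Leaving both out was chosen after seeing the data, and since they were also lowest in the median of the 28 genes, a move of the fold changes upward follows from that choice. Without them, 0 of the 28 genes passed (179 of all tested rows), and IRF1, SOCS1, TNFAIP3, NFKBIZ, CSF1 and PTX3 turned to log2 fold changes of 0.35, 0.57, 0.60, 0.51, 0.36 and 0.13.

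**Figure D5:**
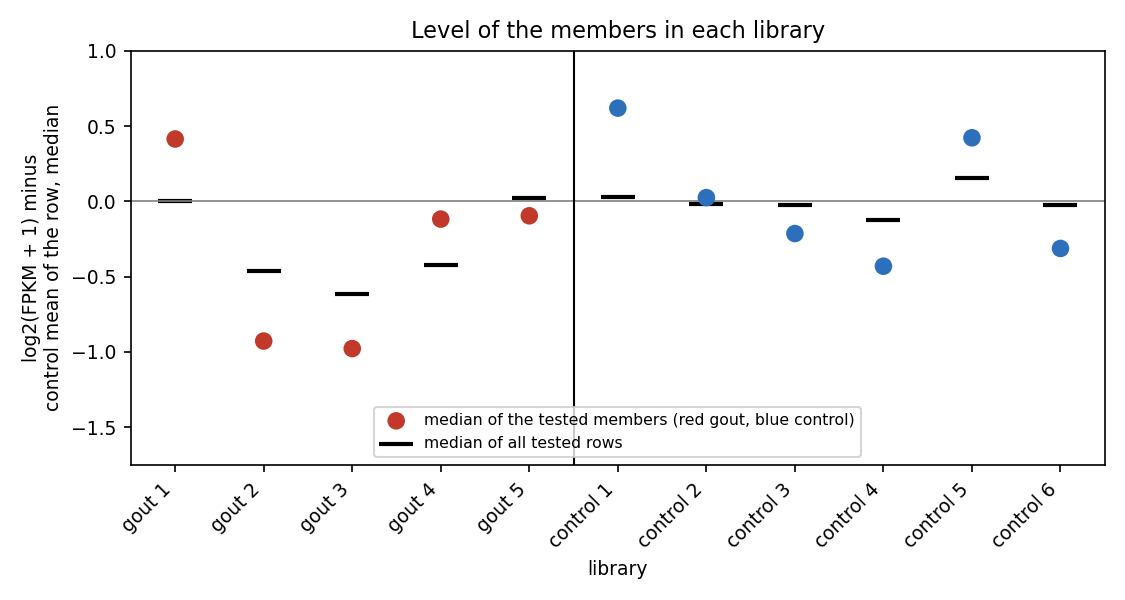
For each library, the median over the 28 tested genes (points, red gout and blue control) and over all tested rows (bars) of log2(FPKM + 1) minus the control mean of the row. Gout replicates 2 and 3 lie at -0.93 and -0.98, below all other libraries, and gout replicate 1 at 0.41 lies within the control range of -0.43 to 0.62.

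The median standard deviation of the 28 genes on the log2 scale was 0.65 in gout and 0.50 in control kidneys, and 22 of the 28 genes (78.6%) varied more in gout. Over all tested rows the medians were 0.50 and 0.32, and 77.7% varied more in gout. The share of the 28 genes that varied more in gout was thus near that of all rows.

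Other genes of the pathway were read from a longer list. Of its 100 symbols, 76 had a row and 70 were tested, and 9 fell and 0 rose. That is 12.9% against the 6.29% of all rows called lower, on a list chosen with earlier results of these data known. The count of 9 was 1 without gout replicate 2 or 4, where 316 and 373 of all tested rows were called. It was 2 without gout replicate 3 (461 of all tested rows) or control replicate 1, 5 or 6 (456, 319 and 524). Without control replicate 3 it was 4 (573 of all tested rows). It was 12 without gout replicate 1, where 1385 of all tested rows were called, against 856 with all goslings. In the group of IKK kinases, IkappaB proteins and activating kinases 0 of 11 passed, and TANK, a TRAF-binding regulator, had the smallest p (log2 fold change -0.60, limma adjusted p = 0.155). Of 25 receptor adaptors, ubiquitin ligases and deubiquitinases TRAF5, a lymphocyte-rich adaptor, fell (0.586 ± 0.505 FPKM in gout and 1.54 ± 0.408 FPKM in control, SD, n = 5 and 6, adjusted p = 0.0424).

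In the JAK-STAT arm 3 of 15 tested genes fell. JAK1, the kinase used by most cytokine receptors of the gp130 and interferon families, was at 1.93, 1.73, 2.07, 1.73 and 1.71 FPKM in gout and at 4.10, 3.75, 4.63, 2.72, 5.54 and 3.77 FPKM in control kidneys. The groups did not overlap, and the log2 fold change was -0.82 (SE 0.18, limma adjusted p = 0.0183, 0.0980 after quantile normalization). STAT4, a lymphocyte STAT factor, and SOCS2, a feedback inhibitor of growth hormone signalling, fell with log2 fold changes of -0.91 and -0.88 (adjusted p = 0.0328 and 0.0440). STAT3, which carries interleukin-6 signals, did not pass, with a log2 fold change of 0.24 (adjusted p = 0.678).

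Of 19 further cytokines and receptors 5 fell, including receptors of leukocytes. Among the 5 were also IL18RAP, given above, and LIFR (log2 fold change -0.80, limma adjusted p = 0.0493). CSF1R, the macrophage receptor for CSF1 and itself one of the macrophage markers, averaged 6.34 ± 6.11 FPKM in gout and 18.4 ± 7.35 FPKM in control kidneys (SD, n = 5 and 6). Its log2 fold change was -1.60 (SE 0.42, limma adjusted p = 0.0383). IL7R, a receptor of T cells, had a log2 fold change of -1.004 (adjusted p = 0.0351) and IL21R, a lymphocyte receptor, -0.91 (adjusted p = 0.0218). IL21R reached 1 FPKM in the 6 control libraries alone, with 0.934 FPKM at most in gout. It thus passed the filter only through the group where it was high, and the counts of fallen genes include it. Gout replicate 1, which had the highest leukocyte sums in gout, was at 17.0 FPKM for CSF1R, against 2.77 to 5.82 FPKM in the other gout kidneys and 8.38 to 26.8 FPKM in controls. After quantile normalization 0 of the 70 genes passed, and after upper quartile scaling 5 fell. TNF, IL1B and IL1RN had no row under their symbols.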

How the data were processed

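Kidney RNA of 11 goslings was sequenced as paired-end polyadenylated libraries, per the labels' protocols. HISAT and StringTie were used, per the submitters' processing notes, and a genome build is, in the sources used here, not given. The FPKM values were made by the authors, scaled to transcript length and mapped fragments, and deposited with 1 column per gosling. Protocol texts in the labels on oxygen in water tanks and on adipose RNA were left unused.

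Ratios of low values between libraries shared a step in at most 0.789% of rows over 55 pairs of libraries, so no counts were recovered. Intervals for counting error cannot be given.

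The 12252 of 19275 rows that reached 1 FPKM in 5 or more libraries were fitted as log2(FPKM + 1) with limma 3.58.1 in R 4.3.3 (group, trend, two-sided, Benjamini-Hochberg, threshold 0.05). The limma fit alone was tried on simulated rows, drawn independently with a common spread for both groups. Shifts shared by the rows of a library were thus not covered. A symbol with several rows used the most abundant. Of 6 planned ratios 2 had both genes tested and were compared with exact permutation tests over 462 splits. Members and lists were chosen with earlier results of these data known. Values per gosling are given for called genes, the 9 with a row among 12 genes fixed by name and the 3 largest fold changes not called, with further genes added where single goslings stood apart. For pathway groups, up to 4 called genes by smallest p, or the smallest p, are named. STAT3, IL18R1 and LIFR were added after their values were seen. Tables came from pandas 2.3.3 and plots from matplotlib 3.10.9 (Python 3.11.15). Of 6554 numeric gene IDs 5070 matched RefSeq, which was used for gene order alone. Alternatives were pseudocounts, filters, scalings, empirical Bayes and weight options, the replicate block, single goslings left out and summed rows, and 2 gout goslings left out together, which was chosen after seeing the data. The goslings are separate animals, and batch is not labelled.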

Additional observations from a re-analysis of the deposited data

Results flagged for a closer look

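On log2(FPKM + 1), 82 sets of values (1 gene in 1 group) were examined, and 11 had 1 library far from the rest of its group. The nominal rate of the rule is about 1 in 20. The sets share libraries and include genes picked because they were called, so no excess over that rate can be read from the count. Gout replicate 1 accounted for 6 of the 11, all high. It was at 9.71 FPKM for IL18 (next highest gout kidney 2.69), 1.35 for TRAF1 (0.595), 5.92 for TRAF3 (1.88), 1.47 for TRAF5 (0.472), 1.78 for IL18RAP (0.450) and 0.934 for IL21R (0.212). The same library had the highest sums of lymphocyte, macrophage and heterophil markers among gout kidneys, at 193, 233 and 41.1 FPKM, and their part in these values was not tested.

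Control replicate 1 was high for CSF1 (8.46 FPKM, next 3.89), IL10RA (9.40, next 4.27), NFKB2 (18.2, next 8.99) and IL21R (2.76, next 1.27). Control replicate 5 was high for SOCS2 (6.51 FPKM, next 4.60).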

How the results depend on the processing

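The 2 called genes became 1 with a pseudocount of 0.01 (LITAF) and on the TPM scale (TNFAIP2). They became 0 without the filter, after quantile normalization, after upper quartile scaling and without gout replicates 2 and 3. The replicate block, fitted without control replicate 6, gave 4 and added IL10RA and NOS2. Leaving out control replicate 6 without the block gave 0. Array weights gave 2 as well, but TNFAIP2 and IL10RA (adjusted p = 0.0376), with LITAF at 0.0718. With single goslings left out the count ranged from 0 to 6, the highest without gout replicate 1, where IL10RA, IL18, TRAF1 and TRAF3 joined. Over all tested rows that fit called 1385, against 856 in the main fit. The 9 pathway genes became 3 without the filter, 0 after quantile normalization, 5 after upper quartile scaling and 0 without gout replicates 2 and 3. The filter at 5 FPKM left 33 of the 70 genes tested, and 1 of them was called. With single goslings left out the pathway count ranged from 1 to 12. All rows called were 856 of 12252 (85 higher and 771 lower), and 450 of the 7083 rows tested with the filter at 5 FPKM. They became 494 after quantile normalization (223 higher and 271 lower), 548 after upper quartile scaling (179 and 369) and 179 without gout replicates 2 and 3 (82 and 97). Single goslings left out gave between 316 (gout replicate 2) and 1466 (gout replicate 5). On the TPM scale they split into 141 higher and 571 lower. The cause of these changes was not tested. The median of all tested rows was -0.00 after quantile normalization, -0.09 after upper quartile scaling and -0.21 on the TPM scale.

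Signs turned after quantile normalization for CSF1 (0.12), REL (0.00076), NFKBIZ (0.10), TNFAIP3 (0.10), SOCS1 (0.0403) and PTX3 (0.0321), after upper quartile scaling for CSF1 (0.0332) and TNFAIP3 (0.0376), and without gout replicates 2 and 3 for CSF1 (0.36), NFKBIZ (0.51), TNFAIP3 (0.60), SOCS1 (0.57), IRF1 (0.35) and PTX3 (0.13). With single goslings left out the log2 fold changes ranged from -0.45 to 0.11 for CSF1, -0.22 to 0.46 for IL1RAP, -0.39 to 0.32 for NFKBIZ, -0.51 to 0.16 for TNFAIP3, -0.62 to 0.20 for SOCS1, -0.72 to 0.0472 for IRF1, -0.13 to 0.41 for PTGS2 and -0.43 to 0.0033 for PTX3. None of these genes was called in any of these settings. The ratio of IL10RA to IL10RB was -1.09 with a pseudocount of 0.01 (exact permutation p = 0.0476) and ranged from -0.73 to -0.39 with single goslings left out. That of TNFRSF1B to TNFRSF1A ranged from -0.29 to 0.0688 with single goslings left out. It was -0.53 with a pseudocount of 0.1 and -0.63 with 0.01 (exact permutation p = 0.214 and 0.171).

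Whether the replicate numbers pair goslings of the groups cannot be decided from 5 pairs. Deviations of same-numbered goslings correlated above 0.1 in 1 of 5 pairs, and 1 of 5 gout goslings correlated best with its own number. The replicate block, fitted without control replicate 6, gave 690 called rows, against 524 without that gosling and without the block. With no counts deposited, how far depth limits the low genes (IL6, IL10, IL15 and TNFSF15) cannot be given.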
